A study of Mus musculus with 18 samples.

Results

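The 36 genes described here are the 20 genes of the cytosolic aminoacyl-tRNA synthetases (*Eprs* charges 2 amino acids, and phenylalanine needs *Farsa* and *Farsb*) and 16 genes of the amino acid response to the transcription factor ATF4. They were listed by gene symbol from their known function, with earlier results of these data already known. All 36 were found among the 37236 genes of the deposited table. RNA was measured by 3′ mRNA sequencing in CD3+ tumor-infiltrating lymphocytes (TILs) of C57BL/6 mice, in 4 groups that cross the genotype of the nuclear receptor gene *Nr2f6* with antibody treatment. *Nr2f6*+/+ (wild-type) and *Nr2f6*-/- mice, whose whole body lacks the gene, received 500000 B16-OVA cells s.c., a melanoma line that carries ovalbumin as a model antigen. From d3 they were given 0.5 mg of an antibody against PD-L1 (αPD-L1) or of the control antibody IgG2b i.p. on several days, and tumors were taken on d14. Each genotype gave 3 samples with IgG2b and 6 with αPD-L1, which makes 18 samples. The ages of the mice are not in the sample labels, and whether a sample is 1 mouse is not stated, so that p-values measure the spread between these samples. All mice carried a tumor. CD4+ and CD8+ cells were enriched on beads and combined before a flow sort on CD3, and a value therefore averages over both kinds of T cell.

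An aminoacyl-tRNA synthetase attaches one kind of amino acid to its tRNA, the step that feeds amino acids to the ribosome. When amino acids run short, uncharged tRNA activates the kinase GCN2, which phosphorylates the initiation factor eIF2α, slows general translation and lets the mRNA of *Atf4* be translated. ATF4 then raises genes of amino acid uptake, amino acid synthesis and tRNA charging. Activated T cells are known for high amino acid uptake, above all through the leucine transporter built from the *Slc7a5* and *Slc3a2* products. Because ATF4 is set largely by translation, the level of its mRNA is not a level of its activity.

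Sequencing depth was similar in all groups. Dividing each deposited value by the value of 1 read in its column gave between 12473400 and 18609500 reads on genes per sample. *Nr2f6* had 23 to 197 reads in the *Nr2f6*+/+ samples and 0 reads in each of the 9 *Nr2f6*-/- samples. By the library numbers the samples came in 2 sets, of which the second holds only replicates 4 to 6 of the αPD-L1 groups, and replicate 2 of *Nr2f6*+/+ αPD-L1 stood furthest from the rest, with 11107 genes detected (the other samples reached up to 13655) and a median correlation of 0.778 with the other samples. T cell markers were present in every sample. The 9 of them summed to 54429 to 61969 normalized counts in *Nr2f6*+/+ IgG2b and 64847 to 70278 in *Nr2f6*-/- IgG2b. With αPD-L1 the sums were 59240 to 86011 in *Nr2f6*+/+ and 78838 to 95199 in *Nr2f6*-/-. The part of this shift in the differences below was not tested. Markers of other cells were present too. The 13 macrophage markers summed to 15960 to 20361 in *Nr2f6*+/+ IgG2b, 9385 to 13115 in *Nr2f6*-/- IgG2b, 1664 to 6814 in *Nr2f6*+/+ αPD-L1 and 926 to 2618 in *Nr2f6*-/- αPD-L1. The defining genes *Adgre1* and *Csf1r* were at 0 in 4 samples and 1 sample. Melanoma markers summed to 2495 to 4665 in *Nr2f6*+/+ IgG2b and 2026 to 7149 in *Nr2f6*+/+ αPD-L1. Their sums were 1156 to 2336 in *Nr2f6*-/- IgG2b and 736 to 4371 in *Nr2f6*-/- αPD-L1. The 5 B cell markers summed to 901 to 4160. Of these, *Ighm* had 900 to 4153 normalized counts, while *Cd79a* was at 0 in every sample. Since macrophage markers were lower with αPD-L1, every treatment difference below stands beside this change, and its part in those differences was not tested. In RNA of a whole sample, fewer cells of a type and less RNA per cell cannot be told apart.

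The values are normalized counts, that is, reads per gene divided by 1 size factor per sample. They are not per length, and levels are not compared between single genes here. Of the 36 genes, 35 had a mean of at least 10 normalized counts and were among the 11992 genes tested. *Slc7a11* was not tested. *Chac1* and *Trib3* passed through some of the samples and had 0 reads in 11 and 4 of the 18. *Chac1* passed through its level in *Nr2f6*-/- IgG2b. The synthetase genes were detected in all samples except for *Cars*, the cysteine enzyme, with 0 reads in 1 sample. Each synthetase gene is given here by its own mean over the 18 samples, in alphabetical order and without ranking. The means in normalized counts were 1515 for *Aars* (alanine), 139 for *Cars*, 1177 for *Dars* (aspartate), 1639 for *Eprs* (glutamate and proline), 1722 for *Farsa* and 4403 for *Farsb* (the subunits of the phenylalanine enzyme), 2596 for *Gars* (glycine) and 366 for *Hars* (histidine). They were 699 for *Iars* (isoleucine), 1604 for *Kars* (lysine), 910.5 for *Lars* (leucine), 1083 for *Mars* (methionine), 2618 for *Nars* (asparagine) and 1268 for *Qars* (glutamine). They were 2400 for *Rars* (arginine), 1781 for *Sars* (serine), 2040.5 for *Tars* (threonine), 830 for *Vars* (valine), 593 for *Wars* (tryptophan) and 457 for *Yars* (tyrosine). The median residual SD of the 20 synthetase genes within groups was 0.46 on the log2 scale, against 0.88 over all genes tested. The ATF4 response genes had a median residual SD of 0.59. These SDs were not matched for count. The median normalized count was 1391 for the synthetase genes, 700 for the ATF4 response genes and 305 over all genes tested.

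**Figure D1:**
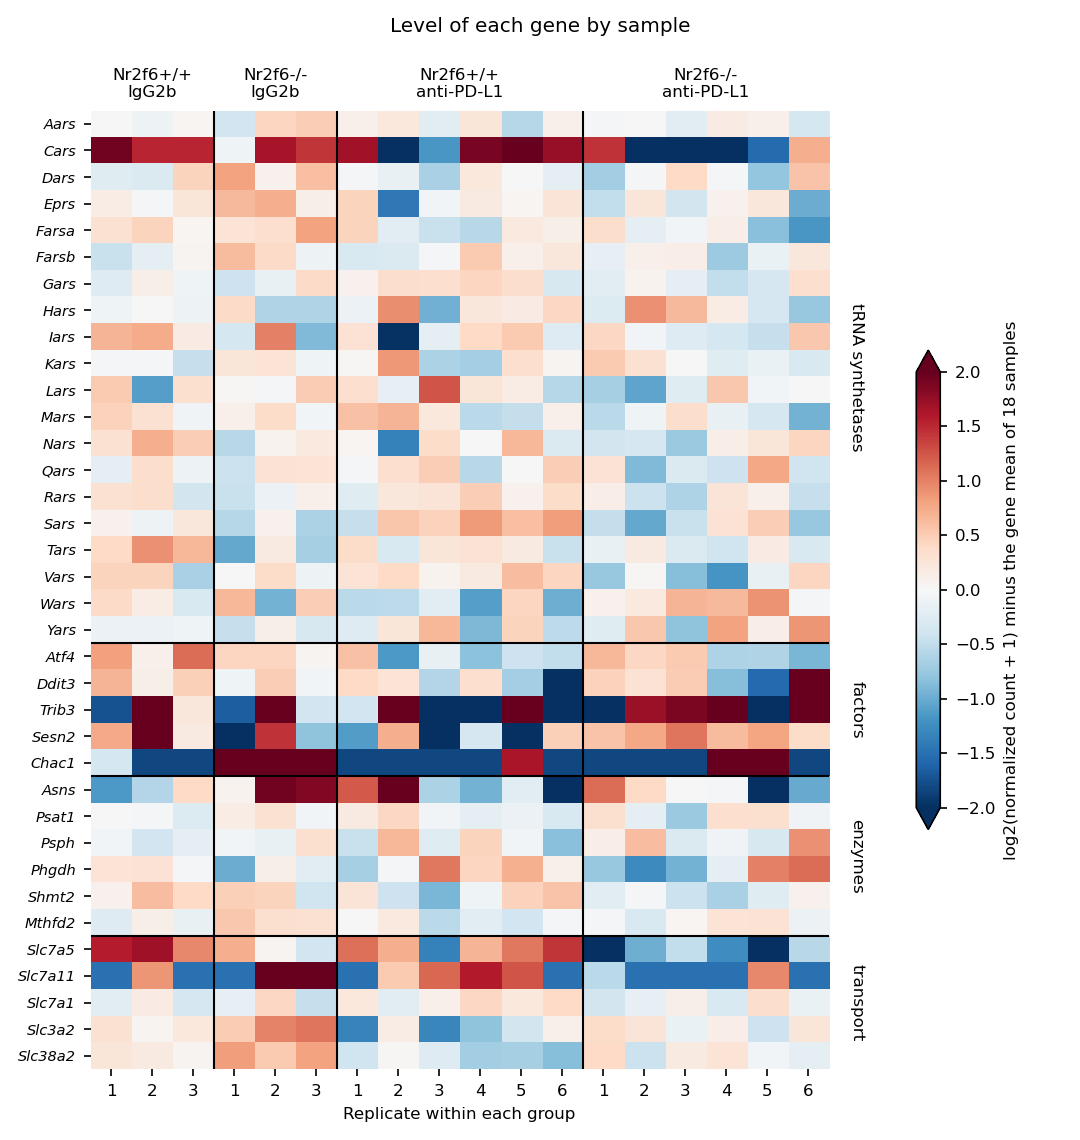
Each column is a sample, grouped by genotype and antibody, and each row a gene. The color gives log2(normalized count + 1) minus the mean of that gene over the 18 samples, cut at -2 and 2. Most synthetase rows are pale in all groups, *Slc7a5* is blue in all 6 *Nr2f6*-/- αPD-L1 samples, and *Cars*, *Trib3*, *Chac1*, *Asns* and *Slc7a11* differ between samples of the same group.

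ATF4 binds, together with C/EBP proteins, to response elements whose core can be written TGATGNAA. The promoter windows of RefSeq (GRCm38.p6, 250 bases before to 50 bases after a transcript start) were searched for these letters on both strands. Of 32851 windows of all genes, 3.97% held a match. Windows were given for 27 of the 36 genes, 29 windows in all, and 9 of these held a match, 5 of the 12 synthetase windows and 4 of the 17 others. The 9 genes were *Aars*, *Gars*, *Iars*, *Tars*, *Yars*, *Asns*, *Chac1*, *Trib3* and *Slc7a11*. The matches of *Iars*, *Yars* and *Trib3* lay after the start. For 5 of those with a match before the start, the bases up to the start are shown, 5′ to 3′ on the strand of the gene, with each match in capitals. They are shown because they place the element in a synthesis enzyme, a stress gene, a transporter and 2 synthetases.
Asns: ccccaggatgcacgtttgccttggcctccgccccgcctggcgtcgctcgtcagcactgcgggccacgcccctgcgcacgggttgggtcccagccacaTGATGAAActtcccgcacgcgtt
Chac1: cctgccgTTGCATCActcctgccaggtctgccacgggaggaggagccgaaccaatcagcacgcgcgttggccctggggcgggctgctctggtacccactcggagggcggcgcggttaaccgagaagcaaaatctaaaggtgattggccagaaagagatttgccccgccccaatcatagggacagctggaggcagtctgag
Slc7a11: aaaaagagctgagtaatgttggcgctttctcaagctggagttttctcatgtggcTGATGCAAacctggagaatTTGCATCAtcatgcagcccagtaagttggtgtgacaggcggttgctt
Aars: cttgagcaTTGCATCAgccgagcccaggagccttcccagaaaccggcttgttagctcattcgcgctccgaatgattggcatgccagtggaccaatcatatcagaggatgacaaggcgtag
Tars: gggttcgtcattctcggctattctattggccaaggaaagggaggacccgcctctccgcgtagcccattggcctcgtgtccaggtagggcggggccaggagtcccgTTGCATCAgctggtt

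These stretches are chr6:7693210-7693329 on the minus strand for *Asns*, chr2:119351042-119351241 on the plus strand for *Chac1*, chr3:50443614-50443733 on the minus strand for *Slc7a11*, chr8:111033722-111033841 on the plus strand for *Aars* and chr15:11399659-11399778 on the minus strand for *Tars*. The match of *Asns* began 23 bases before the start and that of *Tars* 15 bases before it. *Slc7a11* had a pair of matches, at 66 and 47 bases before the start. In these capitals the letters read TTGCATCA, the opposite strand of TGATGCAA, in *Chac1*, *Aars*, *Tars* and the *Slc7a11* match at 47 bases. The windows of *Slc3a2* and *Slc38a2*, the 2 genes that passed a test below, held no match. Their last 120 bases before the start are chr19:8713898-8714017 and chr15:96699729-96699848, both on the minus strand.
Slc3a2: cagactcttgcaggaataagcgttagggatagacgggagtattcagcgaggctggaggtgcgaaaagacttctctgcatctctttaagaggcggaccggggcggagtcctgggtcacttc
Slc38a2: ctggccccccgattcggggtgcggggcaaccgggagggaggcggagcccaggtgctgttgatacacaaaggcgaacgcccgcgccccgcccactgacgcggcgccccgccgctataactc

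No match says only that these letters are not in the window. With αPD-L1 over both genotypes, 6 of the 8 tested genes with a match were lower, with a median log2 difference of -0.23. The 6 include *Chac1*, which was tested only through its level in *Nr2f6*-/- IgG2b, so that its direction is no result. Of the 18 tested genes without a match 13 were lower, with a median of -0.22. Of all 11992 genes tested 6758 were lower, with a median of -0.07.

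In the main comparisons no member passed the test. Each difference is between group means of log2(normalized count + 1), tested with limma over all 11992 genes with Benjamini-Hochberg adjustment and a threshold of 0.05. With αPD-L1, the question was which genes depended on *Nr2f6* under checkpoint blockade, and 0 of 35 members differed between *Nr2f6*-/- and *Nr2f6*+/+, where 0.175% of all genes did. At an unadjusted p under 0.05 there were 6 members, 17.1% of the 35 against 9.73% of all genes. DESeq2 on the recovered reads called 1 member, *Slc7a5*, where it called 1.57% of all genes. No member had groups that did not overlap, against 0.592% of all genes. Of the 20 synthetase genes 15 were lower and 5 higher, with a median log2 difference of -0.16, and the median of all genes was -0.0049. Of the 15 ATF4 response genes 10 were higher, with a median of 0.24. For 15 of the synthetase genes the 95% interval lay within a 2-fold change in either direction, which held for 31.8% of all genes. These shares were not matched for count, with a median of 1391 for the synthetase genes and 305 for all genes.

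With IgG2b the same genotype comparison rested on 3 samples a group. Again 0 of 35 members passed, and 0% of all genes did. Unadjusted, 4 members were past 0.05, against 5.35% of all genes. Besides *Chac1*, which is set aside below, these were *Tars*, *Slc3a2* and *Slc38a2*. The groups of 7 members did not overlap, against 14.2% of all genes. One of the 7, *Chac1*, was among the tested genes only through its level in *Nr2f6*-/- IgG2b, which leaves 6. *Chac1*, *Mthfd2*, *Slc3a2* and *Slc38a2* were higher in every *Nr2f6*-/- sample, and *Nars*, *Tars* and *Slc7a5* lower. DESeq2 called *Tars*, where it called 0.75% of all genes. The median log2 difference was -0.0020 for the synthetase genes, 0.06 for the ATF4 response genes and -0.06 for all genes.

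The treatment was compared within each genotype. In *Nr2f6*+/+ mice 0 of 35 members passed (0.242% of all genes), 4 were past an unadjusted 0.05 (7.24% of all genes), DESeq2 called 0 (0.801% of all genes) and the groups did not overlap for *Tars* and *Slc38a2*, both lower (4.54% of all genes). In *Nr2f6*-/- mice 0 members passed (0.325% of all genes), 6 were past an unadjusted 0.05, all of them lower (9.7% of all genes). The 6 include *Chac1*, which was tested only through its level in *Nr2f6*-/- IgG2b, so that its direction here is no result. DESeq2 called 0 (1.96% of all genes). The groups did not overlap for *Mthfd2*, *Slc7a5*, *Slc3a2* and *Slc38a2*, all lower (5.12% of all genes). The ATF4 response genes had a median log2 difference of -0.39 in each genotype, beside -0.10 and -0.04 for all genes. With 1 sample left out these medians ran from -0.53 to -0.16 in *Nr2f6*+/+ and from -0.52 to -0.29 in *Nr2f6*-/- mice. The synthetase genes had medians of 0.03 and -0.16. The 2 comparisons use different samples.

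The combination, *Nr2f6*-/- αPD-L1 against *Nr2f6*+/+ IgG2b, gave 0 members of 35 (0.617% of all genes), 4 past an unadjusted 0.05 (9.04% of all genes) and 1 called by DESeq2, *Slc7a5* (1.51% of all genes). *Cars*, *Tars* and *Slc7a5* did not overlap, all lower (6.17% of all genes). The synthetase median was -0.22, that of the ATF4 response genes -0.13 and that of all genes -0.12. For the interaction, the difference of the treatment effect between the genotypes, 0 members and 0% of all genes passed, 1 member was past an unadjusted 0.05 (4.97% of all genes) and DESeq2 called 0 (0.648% of all genes). These comparisons share groups with those above.

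**Figure D2:**
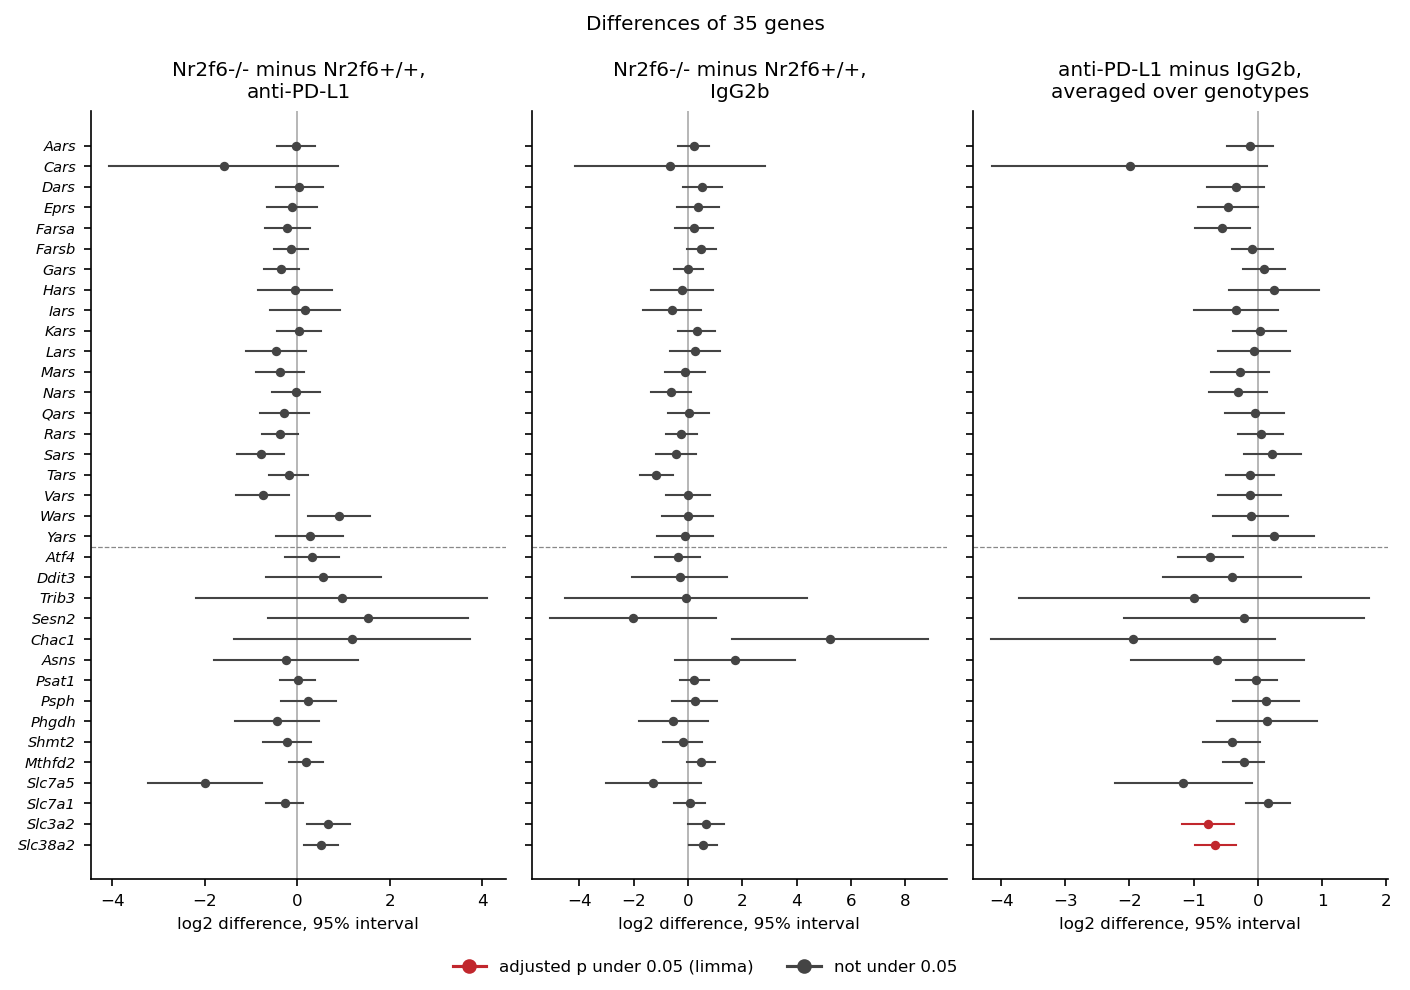
Log2 differences of the 35 tested genes with 95% intervals, for *Nr2f6*-/- minus *Nr2f6*+/+ under αPD-L1 (left) and IgG2b (middle) and for αPD-L1 minus IgG2b averaged over genotypes (right). Synthetase genes are above the dashed line. Red marks an adjusted p under 0.05 in limma, which only *Slc3a2* and *Slc38a2* reached, in the right panel. The horizontal scales differ.

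Since some genes moved alike in both genotypes or both treatments, 2 averaged differences were added after these results had been seen. The genotype difference averaged over both treatments called 0 members (0.05% of all genes), with 7 past an unadjusted 0.05 (8.48% of all genes). The 7 include *Chac1*, which was tested only through its level in *Nr2f6*-/- IgG2b. DESeq2 called *Slc7a5*, *Slc38a2* and *Tars* (1.54% of all genes). The treatment difference averaged over both genotypes called 2 members, *Slc38a2* and *Slc3a2*, both lower with αPD-L1, where 1.13% of all genes passed. At an unadjusted p under 0.05 there were 5 members (11.5% of all genes), and DESeq2 called the same 2 genes (2.84% of all genes). edgeR called *Slc38a2* alone (0.859% of all genes). Of 35 members 26 were lower with αPD-L1, with a median of -0.21 beside -0.07 for all genes. The 26 include *Chac1*, whose direction is no result here for the same reason. This average compares 6 IgG2b samples with 12 αPD-L1 samples, 6 of them from the second library set.

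*Slc38a2*, which encodes the glutamine and neutral amino acid transporter SNAT2, fell with αPD-L1 in the averaged comparison. The *Nr2f6*+/+ IgG2b samples had 3137, 3024 and 2775 normalized counts, and the *Nr2f6*-/- IgG2b samples had 4732, 3841 and 4669. With αPD-L1 the lowest, median and highest values were 1474, 1850 and 2696 in *Nr2f6*+/+ and 1977, 2798 and 3512 in *Nr2f6*-/-. Within each genotype, every αPD-L1 sample was below every IgG2b sample. The averaged treatment difference was -0.66 on the log2 scale (SE 0.16, limma adjusted p = 0.0262), with -0.64 in *Nr2f6*+/+ (adjusted p = 0.410) and -0.69 in *Nr2f6*-/- mice (adjusted p = 0.231). The averaged genotype difference was 0.54 (SE 0.16, adjusted p = 0.245 in limma and 0.0383 in DESeq2, range over its alternatives 0.0383 to 0.467). The library sets of *Nr2f6*+/+ αPD-L1 did not overlap for *Slc38a2*, with 2026 to 2696 in the first set and 1474 to 1673 in the second, which holds only αPD-L1 samples. Within the first library set alone the treatment difference of *Slc38a2* was -0.52 (adjusted p = 0.163).

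*Slc3a2* encodes the CD98 heavy chain, which holds several amino acid transporters at the cell surface. It had 3548, 2975 and 3326 normalized counts in *Nr2f6*+/+ IgG2b and 4089, 5712 and 6023 in *Nr2f6*-/- IgG2b. In *Nr2f6*+/+ αPD-L1 it ran from 1135 over a median of 1940.3 to 3186, and in *Nr2f6*-/- αPD-L1 from 2163 over 3278 to 3713. The *Nr2f6*-/- IgG2b samples were thus the highest of all, and the αPD-L1 samples of that genotype were all below them, while in *Nr2f6*+/+ the highest αPD-L1 samples reached the IgG2b range. The averaged treatment difference was -0.78 (SE 0.20, adjusted p = 0.0418), with -0.78 in each genotype alone (adjusted p = 0.453 and 0.301). In the first library set alone it was -0.86 (adjusted p = 0.0623). The averaged genotype difference of *Slc3a2* was 0.67 (SE 0.20, adjusted p = 0.253).

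Both calls depended on single samples and on settings. Without a filter on low values the adjusted p was 0.0525 for *Slc38a2* and 0.132 for *Slc3a2*, and with the library set as a covariate 0.193 and 0.0777. edgeR gave 0.0381 and 0.0793. *Slc3a2* was no longer called without any 1 of the 6 IgG2b samples (adjusted p = 0.0532 to 0.133) nor without 6 of the 12 αPD-L1 samples one at a time (adjusted p = 0.0533 to 0.0701). *Slc38a2* was no longer called without any 1 of the *Nr2f6*+/+ IgG2b samples or without replicate 1 or 3 of *Nr2f6*-/- IgG2b, where its adjusted p reached 0.0849, and stayed called without each αPD-L1 sample. The log2 difference of *Slc3a2* stayed between -0.87 and -0.71 and that of *Slc38a2* between -0.71 and -0.62. The 13 macrophage markers were all lower with αPD-L1 in the same averaged comparison, 7 of them past the test, and 1 of the 9 T cell markers was lower and none past the test. Whether the macrophage RNA carried part of the *Slc3a2* and *Slc38a2* difference was not tested. In the averaged genotype difference *Slc3a2* and *Slc38a2* were higher without *Nr2f6*, and 12 of the 13 macrophage markers lower, none past the test. There 8 of the 9 T cell markers were higher, none past the test.

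**Figure D3:**
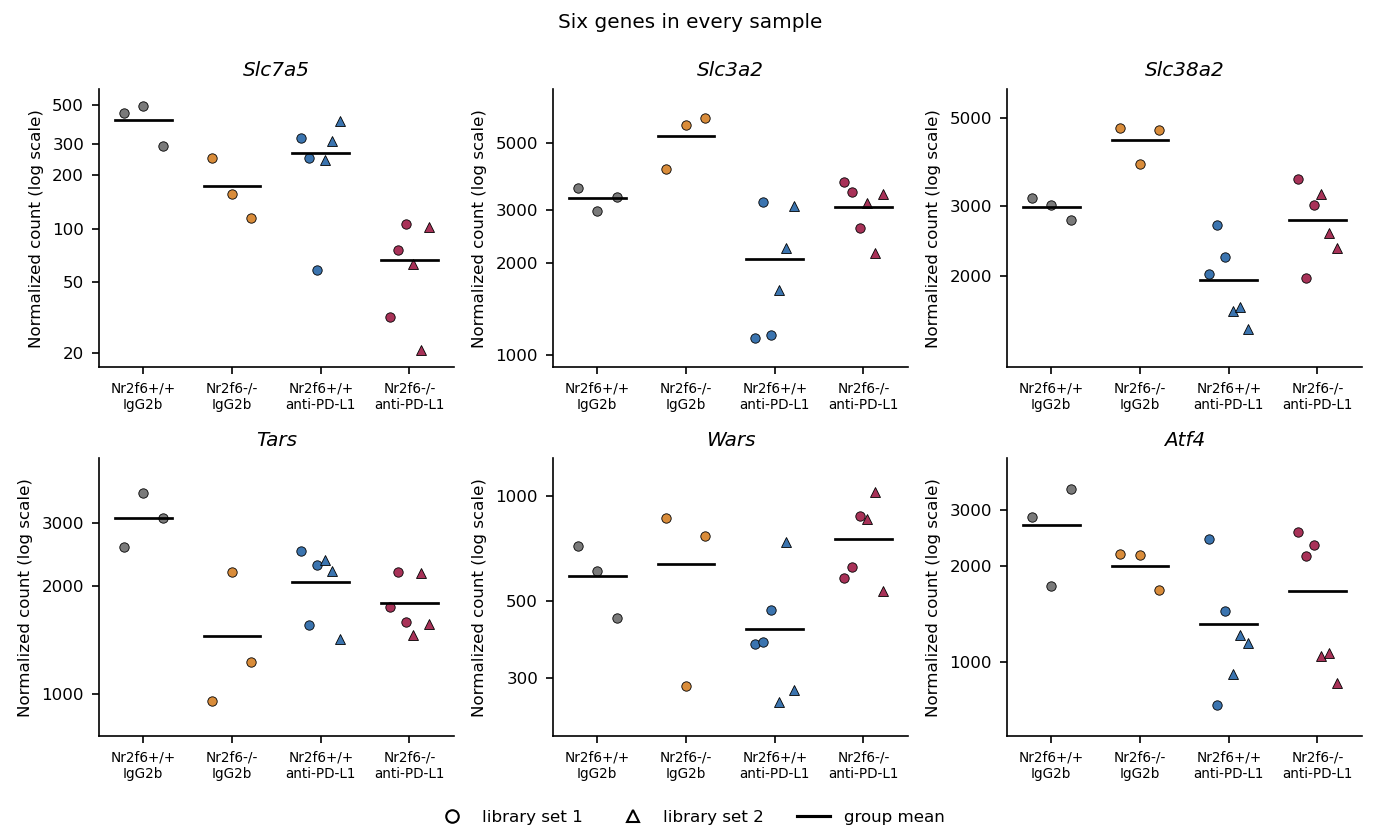
Normalized counts (log scale) of *Slc7a5*, *Slc3a2*, *Slc38a2*, *Tars*, *Wars* and *Atf4* in each of the 18 samples, with the mean of each group as a line and the library set as the symbol. *Slc7a5* is lowest in *Nr2f6*-/- αPD-L1 (20.7 to 107), *Slc3a2* and *Slc38a2* are highest in *Nr2f6*-/- IgG2b, and *Atf4* in *Nr2f6*-/- αPD-L1 splits by library set.

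*Slc7a5*, which encodes LAT1, the light chain that carries leucine and other large neutral amino acids and pairs with the *Slc3a2* product, had lower values without *Nr2f6*. The *Nr2f6*+/+ IgG2b samples had 452, 492 and 295 normalized counts and the *Nr2f6*-/- IgG2b samples 250.2, 157 and 116. With αPD-L1, *Nr2f6*+/+ samples ran from 58.5 over 283 to 406 and *Nr2f6*-/- samples from 20.7 over 69.7 to 107. All but 1 of the *Nr2f6*+/+ αPD-L1 samples were above every *Nr2f6*-/- αPD-L1 sample, the exception being replicate 3 with 58.5. The log2 difference between the genotypes was -1.99 with αPD-L1 (SE 0.60, 95% interval -3.23 to -0.75, adjusted p = 0.225) and -1.28 with IgG2b (SE 0.86, interval -3.03 to 0.47, adjusted p = 0.989). DESeq2 gave an adjusted p of 0.00925 with αPD-L1, the lowest among the alternatives, which reached 0.681. Without that replicate 3 the difference in limma was -2.38 (adjusted p = 0.0697), the largest in size with 1 sample left out. The smallest was -1.70, without replicate 5 of *Nr2f6*-/- αPD-L1 (adjusted p = 0.316). The highest adjusted p of these limma fits was 0.382. In limma the difference was -1.39 in the first library set (adjusted p = 0.569) and -2.59 in the second (adjusted p = 0.681). In the combination the difference was -2.80 (SE 0.74, adjusted p = 0.0824 in limma and 0.00271 in DESeq2, range over its alternatives 0.00271 to 0.413). The treatment difference of *Slc7a5* was -0.81 in *Nr2f6*+/+ (SE 0.74, adjusted p = 0.877) and -1.52 in *Nr2f6*-/- mice (SE 0.74, adjusted p = 0.514). Averaged over treatments its genotype difference was -1.63 (SE 0.52, adjusted p = 0.298 in limma and 0.0194 in DESeq2, range over its alternatives 0.0194 to 0.607). In that averaged difference the 6 tested melanoma markers were all lower without *Nr2f6* as well, none past the test. Whether melanoma RNA carried part of the genotype difference of *Slc7a5* or of other genes was not tested.

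*Slc7a5* lies on chromosome 8 (GRCm38.p6 121881146 to 121907686), as *Nr2f6* does (71374118 to 71381967), 50.5 Mb away. *Farsa* (13.5 Mb), *Aars* (39.7 Mb) and *Kars* (40.6 Mb) lie nearer on that chromosome, with averaged genotype differences of 0.0027, 0.09 and 0.17. The stretch of chromosome around *Nr2f6* in the back-crossed mice cannot be told apart from the lack of *Nr2f6* here.

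**Figure D4:**
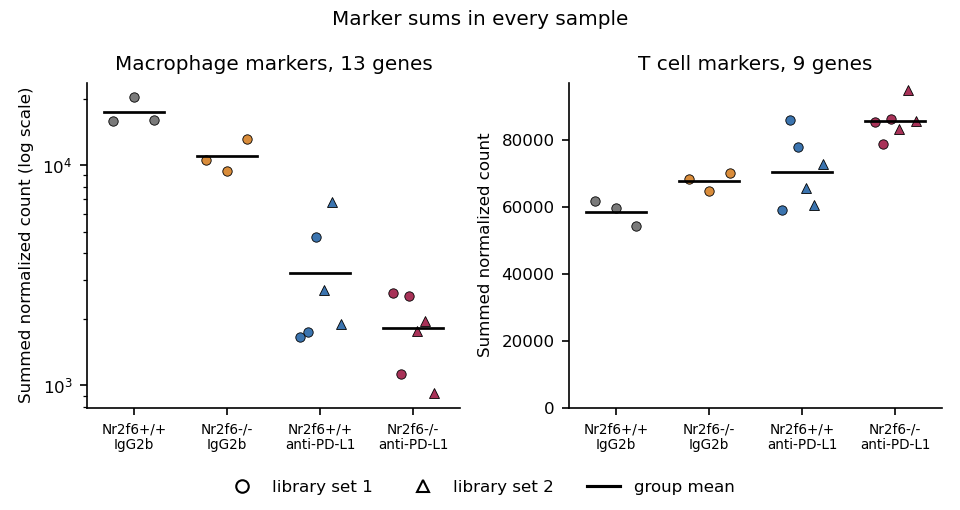
Summed normalized counts of 13 macrophage markers (left, log scale) and 9 T cell markers (right) in each sample, with group means as lines and the library set as the symbol. Macrophage sums are lower in the αPD-L1 groups (926 to 6814) than in the IgG2b groups (9385 to 20361).

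The remaining transporters moved little or were near the limit of detection. *Slc7a1*, the arginine and lysine transporter CAT1, lay between 1301 and 2402 normalized counts in all samples, with a residual SD of 0.29. Its log2 difference between the genotypes was -0.27 with αPD-L1 and 0.06 with IgG2b. *Slc7a11*, the cystine transporter, had 0 reads in 9 samples. It reached 98.9 normalized counts in replicate 3 and 14.1 in replicate 2 of *Nr2f6*-/- IgG2b and at most 7.42 elsewhere. The limit of 3 reads corresponds to between 2.46 and 3.64 normalized counts, counting error only, so most of these values were at or near that limit.

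Among the synthetases, *Tars* had the clearest genotype difference under IgG2b. The *Nr2f6*+/+ IgG2b samples had 2563, 3633 and 3086 normalized counts and the *Nr2f6*-/- IgG2b samples 955, 2188 and 1228. With αPD-L1, *Nr2f6*+/+ ran from 1422 over 2245 to 2502 and *Nr2f6*-/- from 1466 over 1672 to 2186. The IgG2b groups did not overlap, and the αPD-L1 groups did. The log2 difference between the genotypes of *Tars* was -1.16 with IgG2b (SE 0.30, interval -1.76 to -0.56, adjusted p = 0.480 in limma, 0.989 in edgeR and 0.0493 in DESeq2). Over its alternatives the adjusted p ran from 0.0493 to 1. With αPD-L1 the difference was -0.19 (SE 0.21, interval -0.61 to 0.24). The interaction of *Tars* was 0.97 (SE 0.36, unadjusted p = 0.0115, adjusted p = 0.974), so that a difference of the effect between treatments did not pass. The averaged genotype difference of *Tars* was -0.67 (SE 0.18, adjusted p = 0.184 in limma and 0.0402 in DESeq2, range over its alternatives 0.0402 to 0.477). In the combination it was -0.79 (SE 0.26, adjusted p = 0.194).

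*Wars*, which is also known as a gene induced by interferon-γ, was the synthetase that was higher in *Nr2f6*-/- αPD-L1 at an unadjusted p under 0.05. Its values ran from 255 over 378 to 734 in *Nr2f6*+/+ αPD-L1 and from 532 over 741 to 1025 in *Nr2f6*-/- αPD-L1. One *Nr2f6*+/+ sample, replicate 5, reached into the *Nr2f6*-/- range. The log2 difference was 0.90 (SE 0.33, interval 0.23 to 1.57, adjusted p = 0.352). With IgG2b the values were 716, 609 and 444 in *Nr2f6*+/+ and 865, 284 and 766 in *Nr2f6*-/-, a difference of -0.01 with an interval from -0.96 to 0.94. The treatment difference of *Wars* was -0.57 in *Nr2f6*+/+ and 0.34 in *Nr2f6*-/- mice, and its interaction 0.91 (SE 0.57, adjusted p = 0.974). The other synthetases with an unadjusted p under 0.05 in that comparison were lower. *Sars* differed by -0.79 (SE 0.25, adjusted p = 0.252) and *Vars* by -0.74 (SE 0.28, adjusted p = 0.360), and both overlapped between the groups. *Lars* differed by -0.46 with an interval from -1.10 to 0.19. *Cars* had the largest synthetase differences in size, -1.59 in this comparison and -3.12 in the combination, and the widest intervals. It had 187 to 249 normalized counts in *Nr2f6*+/+ IgG2b, while in *Nr2f6*-/- αPD-L1 its lowest, median and highest values were 1.74, 18.3 and 178. One *Nr2f6*+/+ αPD-L1 sample had 0 reads and another 28.2 normalized counts, so low values occurred in both genotypes. The treatment difference of *Cars* was -1.53 in *Nr2f6*+/+ and -2.46 in *Nr2f6*-/- mice (SE 1.48 in both, adjusted p = 0.880 and 0.629). The first of these depended on the sample with 0 reads and on the library set. Without that sample the difference was -0.30, and edgeR gave -0.16. The group means were 208 with IgG2b and 184 with αPD-L1. In the first library set alone the *Nr2f6*+/+ difference was -3.50, and with the library set as a covariate -2.77. In *Nr2f6*-/- mice edgeR gave -1.40 for *Cars*, and leaving out 1 sample gave -3.04 to -1.83. The first set alone gave -2.97 there, and the covariate -3.70.

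In the treatment comparison in *Nr2f6*-/- mice, *Farsa* (-0.76, SE 0.29, adjusted p = 0.342) and *Eprs* (-0.71, SE 0.32) were the synthetases past an unadjusted 0.05. *Nars* was lower in every *Nr2f6*-/- IgG2b sample (1679 to 2822) than in the *Nr2f6*+/+ IgG2b samples (3062 to 4077), with a log2 difference of -0.61 (SE 0.36, adjusted p = 0.967). *Dars* had the largest positive difference of a synthetase there, 0.53 (SE 0.35, adjusted p = 0.989). *Gars*, *Lars* and *Sars* led the synthetases in *Nr2f6*+/+ mice given αPD-L1, with 0.28, 0.29 and 0.40 and intervals that included 0. *Hars*, *Tars*, *Wars* and *Yars* led in *Nr2f6*-/- mice, with 0.34, 0.37, 0.34 and 0.44, and *Kars*, *Yars* and *Wars* in the combination with 0.20, 0.32 and 0.33, none past an unadjusted 0.05. Taking the synthetases as a list, the median deviation from the gene means in a sample was between 0.04 and 0.22 in *Nr2f6*+/+ IgG2b, 0.02 and 0.22 in *Nr2f6*+/+ αPD-L1, -0.03 and 0.22 in *Nr2f6*-/- IgG2b and -0.25 and 0.03 in *Nr2f6*-/- αPD-L1. The last group held 5 to 10 synthetase genes above their mean per sample, and the other groups 10 to 17.

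*Atf4* itself did not pass the test in any comparison. The *Nr2f6*+/+ IgG2b samples had 2853, 1722 and 3489 normalized counts, and the αPD-L1 samples ran from 728 over 1175 to 2420. The *Nr2f6*-/- IgG2b samples had 2177, 2158 and 1674. In *Nr2f6*-/- αPD-L1 the 3 samples of the first library set had 2143 to 2561 and the 3 of the second set 855 to 1063, without overlap. The treatment difference of *Atf4* was -1.09 in *Nr2f6*+/+ (SE 0.35, interval -1.80 to -0.37, adjusted p = 0.325) and -0.92 in the first set alone, and it was -0.69 with the library set as a covariate (adjusted p = 0.681). In *Nr2f6*-/- mice it was -0.39 over both sets and 0.23 in the first set alone, so its direction depended on the library set. In the combination the difference of *Atf4* was -0.77 (SE 0.35, adjusted p = 0.495). Such a split between library sets without overlap was seen for 6 of the 36 genes in *Nr2f6*-/- αPD-L1 (*Kars*, *Lars*, *Nars*, *Atf4*, *Asns* and *Phgdh*), where it was seen for 15.9% of all genes tested. In *Nr2f6*+/+ αPD-L1 it was seen for 7 (*Cars*, *Farsb*, *Mars*, *Sars*, *Psat1*, *Slc7a1* and *Slc38a2*), against 10.2% of all genes tested.

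The other factors of the response had low and scattered counts. *Ddit3*, which encodes CHOP, had 186 to 273 normalized counts in *Nr2f6*+/+ IgG2b, 160 to 240.3 in *Nr2f6*-/- IgG2b, 35.2 to 223 in *Nr2f6*+/+ αPD-L1 and 57.6 to 694 in *Nr2f6*-/- αPD-L1. Its treatment difference in *Nr2f6*+/+ was -0.85 (SE 0.74, adjusted p = 0.872). *Atf4*, *Ddit3*, *Trib3* and *Sesn2* had a positive genotype difference under αPD-L1 and a negative averaged treatment difference, and none passed the test in either. In *Nr2f6*-/- mice alone the treatment difference was positive for *Ddit3* (0.03) and *Sesn2* (1.56) and negative for *Atf4* (-0.39) and *Trib3* (-0.48). In edgeR the genotype difference of *Trib3* under αPD-L1 was 0.11. *Chac1* was also positive for the genotype under αPD-L1 and negative for the averaged treatment difference, and did not pass. It was tested only through its level in *Nr2f6*-/- IgG2b, which enters the treatment difference. Its first-set values under αPD-L1 were 0 in both genotypes. *Trib3*, a pseudokinase that restrains the response, ran from 0 to 182 normalized counts with a residual SD of 2.92. Its treatment difference in *Nr2f6*+/+ was -1.50 (SE 1.89). *Sesn2*, an inhibitor of mTORC1 signalling, ran from 1.90 to 152, with 1.54 for *Nr2f6*-/- against *Nr2f6*+/+ under αPD-L1 (SE 1.06) and -2.01 under IgG2b (SE 1.49). Its treatment difference was -1.99 in *Nr2f6*+/+ and 1.56 in *Nr2f6*-/- mice, and its interaction 3.55 (SE 1.83, adjusted p = 0.974). Single samples set the size of both *Nr2f6*-/- values. The treatment difference was 0.38 without replicate 1 and 2.71 without replicate 2 of *Nr2f6*-/- IgG2b, and 0.56 in edgeR, while the genotype difference under IgG2b ran from -3.16 to -0.83 with 1 sample left out. *Chac1*, which degrades glutathione, was detected in 5 of 9 *Nr2f6*-/- and 2 of 9 *Nr2f6*+/+ samples. The *Nr2f6*-/- IgG2b samples had 107, 18 and 76 reads and the *Nr2f6*+/+ IgG2b samples 2, 0 and 0. In *Nr2f6*-/- αPD-L1 4 of 6 samples had 0 reads and the remaining samples 37 and 43, and in *Nr2f6*+/+ αPD-L1 1 of 6 had reads, 12. On the log2 scale the genotype difference of *Chac1* was 5.24 with IgG2b (SE 1.77, adjusted p = 0.846) and 1.19 with αPD-L1 (adjusted p = 0.801), and these sizes depend on the 1 added to each value. Its treatment difference in *Nr2f6*-/- mice was -3.97 (SE 1.53, adjusted p = 0.344), and its interaction -4.05 (SE 2.16, adjusted p = 0.974).

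The 6 synthesis enzymes had residual SDs from 0.23 (*Mthfd2*) to 1.36 (*Asns*). *Psat1*, *Psph* and *Phgdh* make serine, and *Shmt2* and *Mthfd2* carry its carbon into the mitochondrial folate cycle. *Psat1* lay between 2166 and 4833 normalized counts, with genotype differences of 0.01 with αPD-L1 (interval -0.36 to 0.38) and 0.23 with IgG2b. *Mthfd2* was higher in *Nr2f6*-/- IgG2b (2583, 2205 and 2174) than in *Nr2f6*+/+ IgG2b (1477, 1926 and 1590.3), a difference of 0.48 (SE 0.26, adjusted p = 0.937). *Psph* had 514 to 644 normalized counts in *Nr2f6*+/+ IgG2b, 600.2 to 835 in *Nr2f6*-/- IgG2b, 376 to 1057 in *Nr2f6*+/+ αPD-L1 and 537 to 1258 in *Nr2f6*-/- αPD-L1. *Shmt2* had 1197 to 1740, 856 to 1575, 597 to 1686 and 718 to 1206 in the same order, and *Phgdh* 318 to 401, 164 to 357, 206 to 682 and 135 to 716. For each of these 3 genes the 4 ranges overlapped in part. *Psph* and *Shmt2* gave averaged treatment differences of 0.13 and -0.41, neither past the test. *Phgdh* gave an averaged genotype difference of -0.48 (SE 0.38). *Asns*, asparagine synthetase, ranged from 59.7 to 177 in *Nr2f6*+/+ IgG2b and from 140 to 511 in *Nr2f6*-/- IgG2b, and from 24.0 to 739 and 23.4 to 292 in the αPD-L1 groups. Its genotype difference was 1.73 with IgG2b (SE 1.08, adjusted p = 0.979) and -0.24 with αPD-L1 (interval -1.79 to 1.32). The treatment difference of *Asns* was 0.35 in *Nr2f6*+/+ and -1.61 in *Nr2f6*-/- mice (SE 0.93 in both), and its interaction -1.96 (SE 1.32, adjusted p = 0.974). None of these 6 enzymes passed the limma, edgeR or DESeq2 test in any comparison.

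Of 62 further genes of these pathways (eIF2 kinases and phosphatases, other ATF4 targets, one-carbon enzymes, the scaffold of the synthetase complex and mitochondrial synthetases), 57 were tested. In the comparisons other than the averaged ones 0 passed in limma. In the averaged treatment difference 1 passed, *Atf3*, a factor induced by many kinds of stress, which was lower with αPD-L1 (-6.05, SE 1.29, adjusted p = 0.0147), and DESeq2 did not call it (adjusted p = 0.298). The test passed 1.13% of all genes there. Of the 57, 38 were lower with αPD-L1, with a median of -0.23. DESeq2, which called 1.57% of all genes for the genotype under αPD-L1, called *Ddit4*, an inhibitor of mTORC1 (-1.19 in limma, SE 0.27, adjusted p = 0.0618 in limma and 0.000410 in DESeq2), *Gpt2* (-2.98) and *Stc2* (-3.09) as lower and *Ppp1r15a*, the stress-induced subunit of the eIF2α phosphatase (3.28, SE 0.82, adjusted p = 0.0927 in limma and 0.0182 in DESeq2), as higher in *Nr2f6*-/- αPD-L1 than in *Nr2f6*+/+ αPD-L1. The values of *Gpt2* and *Stc2* are limma differences. That of *Gpt2* had an SE of 1.28, with an adjusted p of 0.431 in limma and 0.265 in edgeR. edgeR called *Ddit4* alone of the 57 there (adjusted p = 0.0395), and 0.183% of all genes. In the averaged genotype difference DESeq2 called *Ddit4* (-0.83, adjusted p = 0.222 in limma and 0.0203 in DESeq2) and *Gpt2* (-3.83, adjusted p = 0.245 and 0.00711), where it called 1.54% of all genes. *Ppp1r15a* was lower with αPD-L1 in *Nr2f6*+/+ mice (-3.99, adjusted p = 0.103 in limma and 0.0181 in DESeq2, which called 0.801% of all genes). In the averaged treatment difference *Ppp1r15a* was at -2.48 (adjusted p = 0.0821 in limma and 0.0204 in DESeq2, which called 2.84% of all genes). The 17 mitochondrial synthetases tested gave medians of -0.15 for the genotype under αPD-L1 and 0.05 for the averaged treatment difference.

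For the genes followed through every comparison, the log2 differences not yet given are these, none past the limma test. Under IgG2b the genotype difference was -0.31 for *Ddit3*, -0.66 for *Cars*, -0.37 for *Atf4*, 0.67 for *Slc3a2* and 0.56 for *Slc38a2*, and under αPD-L1 it was 0.56 for *Ddit3*, 0.96 for *Trib3*, 0.32 for *Atf4*, 0.67 for *Slc3a2* and 0.51 for *Slc38a2*. With treatment, *Chac1* differed by 0.09, *Slc7a1* by 0.32 and *Tars* by -0.61 in *Nr2f6*+/+ mice. In the combination *Chac1* differed by 1.27, *Psph* by 0.37, *Asns* by 0.11, *Slc3a2* by -0.11, *Slc38a2* by -0.13 and *Ddit3* by -0.28.

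The interaction was 1.03 for *Trib3*, 0.88 for *Ddit3*, 0.69 for *Atf4*, 0.0018 for *Slc3a2*, -0.05 for *Slc38a2*, -0.71 for *Slc7a5*, -0.76 for *Vars* and -0.93 for *Cars*. The averaged genotype difference was 3.21 for *Chac1* (SE 1.08, adjusted p = 0.333), 0.75 for *Asns*, 0.44 for *Wars*, 0.13 for *Ddit3*, -0.03 for *Atf4*, -0.62 for *Sars* and -1.13 for *Cars*. The averaged treatment difference was -1.995 for *Cars*, -1.94 for *Chac1*, -1.16 for *Slc7a5* (adjusted p = 0.372), -0.99 for *Trib3*, -0.74 for *Atf4* (SE 0.25, adjusted p = 0.160), -0.63 for *Asns*, -0.41 for *Ddit3*, -0.12 for *Tars* and -0.11 for *Wars*. It was positive for *Slc7a1* (0.15), *Sars* (0.23), *Hars* (0.25) and *Yars* (0.25).

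Some genes share exon bases with a neighbour in GENCODE vM21, and whether reads were counted by strand is not given in the sources used here. On the opposite strand these were *Mars* and *Ddit3* with each other (68 bases), *Ddit3* with *Gm4189* (13), *Farsb* with *Sgpp2* (248), *Hars* with *Hars2* (195), *Psph* with *Cct6a* (452), *Shmt2* with *Ndufa4l2* (32), *Yars* with *C77080* (30), *Cars* with *Gm15580* (211) and *Aars* with *Gm24103* (77). On the same strand *Aars* overlapped *Exosc6* (1326 bases). *Kars* and *Phgdh* have annotated pseudogenes. *Slc7a5*, *Slc3a2*, *Slc38a2*, *Tars*, *Wars* and *Atf4* shared no exon base with another gene.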

How the data were processed

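RNA from 18 samples was sequenced with a 3′ kit. Per the labels and the methods of the study, the authors trimmed with Cutadapt and Trimmomatic, kept reads of at least 22 bases, aligned with STAR and then Bowtie2 to mm10, counted reads per gene with HTSeq and normalized with DESeq2. Versions, annotation and strand setting are not given in the sources used here. The deposited signal is thus reads per gene divided by 1 size factor per sample, and 100% of values gave whole reads (tolerance 0.01). Genes with a mean of at least 10 were fitted as log2(signal + 1) in 1 limma model of 4 group means (eBayes with trend, two-sided, Benjamini-Hochberg over all genes tested, threshold 0.05). For low genes the limma difference could be smaller or larger than that of edgeR. The genotype difference of *Chac1* under IgG2b was 5.24 against 6.54 in edgeR. The treatment difference of *Cars* in *Nr2f6*+/+ mice was -1.53 against -0.16. edgeR's quasi-likelihood test and DESeq2 on the recovered reads, other added values, filters, scalings, library sets and leaving out each sample were alternatives. Intervals are 95% and read limits cover counting error only. R 4.3.3, limma 3.58.1, edgeR 4.0.16 and DESeq2 1.42.0 were used, and the fits were tested on simulated data. The members and lists were chosen with earlier results of these data known. All members are named by level, and by comparison those called by any tool, the 4 with the largest and the 4 with the smallest differences, and *Atf4*, *Ddit3*, *Asns*, *Wars*, *Slc7a5*, *Slc3a2*, *Slc7a11* and *Chac1*. Other pathway genes are named where called. The 2 averaged differences were added after the separate comparisons were seen.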

Additional observations from a re-analysis of the deposited data

Results flagged for a closer look

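Among 70 sets of 6 samples (35 tested genes in 2 αPD-L1 groups), 5 held a sample far from the others by Dixon's test, which flags about 1 in 20 sets by chance. All 5 were in *Nr2f6*+/+ αPD-L1. Replicate 2 had 572 normalized counts of *Eprs* (nearest sample 1493) and 160.1 of *Iars* (nearest 531). Replicate 1 had 1201 of *Sars* (nearest 2272), and replicate 3 had 58.5 of *Slc7a5* (nearest 243). Replicate 5 had 9.86 of *Chac1*, where the others had 0.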

How the results depend on the processing

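DESeq2 called 1 member for the genotype under αPD-L1, 1 under IgG2b, 1 in the combination and 3 in the averaged genotype difference, against 0 in limma. In the averaged treatment difference, limma's 2 calls became 0 without a filter on low values, in the first library set alone, with the library set as a covariate and with the replicate block, 1 with edgeR, and 0 to 2 when 1 sample was left out. Same-numbered samples did not deviate together (correlations -0.03 to 0.04 over 21 pairs), so the numbers do not pair them. The block took the calls over all genes in that comparison from 136 to 69. Directions turned in the first library set alone for *Chac1* (0 for the genotype under αPD-L1, -0.49 in the combination), *Atf4* in *Nr2f6*-/- mice (0.23, and 0.0036 with the covariate or block), *Yars* in the combination (-0.064) and *Sars* in the averaged treatment difference (-0.080, also with the covariate or block). Leaving out 1 sample gave -0.21 to 0.60 for *Lars* and -0.16 to 0.82 for *Asns* (treatment in *Nr2f6*+/+) and -0.16 to 0.64 for *Wars* (treatment in *Nr2f6*-/-). The cause was not tested. Of 849 other values of single genes, 825 kept their direction and side of the threshold, as did 840 of 861 with a sample left out. Depth limits *Slc7a11*, *Chac1* and *Trib3*, which were at 0 reads in several samples.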
